A study of Mus musculus with 9 samples.

Results

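Of 95142 consensus regions of open chromatin in mouse mesenchymal progenitor cells, 1495 were open in *Atrx* knockout clone G7 alone. They were selected on the presence of peaks, the places where an assay for transposase-accessible chromatin (ATAC-seq) finds open DNA. Overlapping or touching peaks of all libraries on chromosomes 1 to 19 were merged into 132893 regions. A region was a G7-only region when at least 2 of the 3 G7 libraries held a peak in it and none of the 3 wild-type (WT) or 3 B10 libraries did. A consensus region is a merged region with a peak in at least 2 of 3 libraries of any line. G7-only regions were 1.57% of these, against 5.05% (4802 regions) open by the same rule in B10 alone and 4.37% (4154 regions) in WT alone.

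The cells were C3H/10T1/2, an established mouse line of mesenchymal progenitor cells (MPCs) with the capacity to form fat, cartilage, bone and muscle. WT cells carried Cas9 from an empty vector without a guide, and B10 and G7 were clones in which *Atrx* had been knocked out by CRISPR-Cas9 with 1 of 2 guides. Each knockout line is therefore 1 clone, and what belongs to the clone cannot be told apart from what belongs to the knockout in a set of regions found in G7 and not in B10. The paper's workflow, which includes the WT control, seeded single cells after transfection. Whether WT is also 1 clone is not stated outright, so differences from WT may hold traits of a WT clone too. The guide behind each clone is not given in the sources used here, and nothing says that the 3 libraries of a line came from separate cultures, so the spread between them may be technical. The libraries held 74643 to 86650 peaks on chromosomes 1 to 19, and 77706, 77200 and 74643 of these were in G7 replicates 1, 2 and 3. The lists hold no read counts, so depth is unknown, and an absent peak means that none was detected. Promoters of 13 of 15 mesenchymal marker genes, here within 1 kb of a coding start, held a peak in all 9 libraries, while *Thy1* and *Nt5e* held none in any. The same held for 0 of 10 blood, 2 of 10 epithelial, 4 of 10 endothelial and 2 of 10 neural marker promoters, and no G7-only region lay within 1 kb of a start of any of these genes.

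ATRX is a chromatin remodeller that, with its partner DAXX, places the histone variant H3.3 at heterochromatin, telomeres and repeats. Open chromatin marks promoters, where transcription starts, and enhancers, which act from a distance and are bound by factors of the cell's lineage. Many promoters lie in CpG islands, stretches rich in unmethylated CG dinucleotides that are usually open whether or not the gene is strongly transcribed. Enhancers of mesenchymal cells often hold sites for AP-1, TEAD and RUNX factors, while CTCF marks insulators and loop anchors.

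The sequences below show what the strongest of these regions look like. Each is the window of 100 bp either side of the summit, the highest point of the G7 peak, on the plus strand of mm10. The first 3 lie at or near the starts of *Pfn4* (chr12:4768943-4769143), *Ppara* (chr15:85735301-85735501) and *Zfp423* (chr8:87960490-87960690), with CG dinucleotides in capitals. They are shown because CpG-dense promoters were frequent among the strongest G7-only regions, and this display was chosen after the values were seen. The next, at the promoter of *Zfp583* (chr7:6331224-6331424), has in capitals the reverse complement of the SOX motif CCTTTGT. The last, 4.65 kb from the start of *Camk2g* (chr14:20798903-20799103), belongs to the strongest G7-only region with an AP-1 motif (TGANTCA), which was also the strongest with a CTCF motif, and both are in capitals.
Pfn4: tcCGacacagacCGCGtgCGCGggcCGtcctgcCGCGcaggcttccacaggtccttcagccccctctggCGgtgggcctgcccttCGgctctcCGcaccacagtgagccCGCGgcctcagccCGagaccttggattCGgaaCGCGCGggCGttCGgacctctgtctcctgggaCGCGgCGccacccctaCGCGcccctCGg
Ppara: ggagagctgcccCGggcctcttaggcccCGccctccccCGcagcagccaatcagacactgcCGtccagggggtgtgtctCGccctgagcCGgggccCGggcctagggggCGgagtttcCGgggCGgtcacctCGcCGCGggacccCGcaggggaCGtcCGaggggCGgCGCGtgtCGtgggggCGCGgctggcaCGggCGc
Zfp423: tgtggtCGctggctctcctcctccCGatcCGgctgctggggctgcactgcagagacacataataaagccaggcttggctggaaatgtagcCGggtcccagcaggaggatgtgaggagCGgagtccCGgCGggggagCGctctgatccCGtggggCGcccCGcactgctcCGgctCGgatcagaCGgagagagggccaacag
Zfp583: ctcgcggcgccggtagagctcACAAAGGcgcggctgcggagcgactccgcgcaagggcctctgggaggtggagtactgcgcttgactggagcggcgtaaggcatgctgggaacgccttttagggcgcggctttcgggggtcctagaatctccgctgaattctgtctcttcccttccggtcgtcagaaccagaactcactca
Camk2g: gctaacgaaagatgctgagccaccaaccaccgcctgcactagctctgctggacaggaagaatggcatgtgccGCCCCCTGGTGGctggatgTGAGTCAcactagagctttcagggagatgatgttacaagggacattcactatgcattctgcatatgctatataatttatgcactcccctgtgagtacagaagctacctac

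The *Pfn4* window held 26 CG dinucleotides in 201 bp, that of *Ppara* 24 and that of *Zfp423* 14. The GC content of these windows was 73.1%, 78.1% and 66.2%. The *Camk2g* window had a GC content of 50.3%.

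The strength of a peak was given as its rank, the percentile of its −log10 q-value within its own library, where 100 is the strongest peak. The strongest G7-only region was at the shared promoter of *Pfn4*, a member of the profilin family of actin-binding proteins, and *Fam228b* (chr12:4768671-4769522). Its ranks were 90.3, 89.1 and 86.2 in G7 replicates 1, 2 and 3, with fold enrichments over background of 22.1, 20.1 and 17.7. All of these values were high, and the nearest WT or B10 peak was 8.32 kb away. *Arhgap26*, a GTPase-activating protein, had a promoter region ranked 83.5, 79.1 and 83.2.

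The promoter of *Ppara* (chr15:85735070-85735898), the nuclear receptor that drives fatty acid oxidation, had ranks of 72.3, 74.0 and 73.7. The region at *Zic5* (chr14:122463894-122465192), a zinc-finger factor of the developing nervous system, had ranks of 71.6, 69.6 and 69.9. *Igsf9b*, an adhesion protein of inhibitory synapses, had a promoter region ranked 79.3, 67.2 and 70.1. The 3 G7 libraries differed most at *Igsf9b* among the 8 strongest regions, and replicate 1 was the high one. *Hmx2*, a homeobox factor of the inner ear, had ranks of 67.5, 67.4 and 66.5 at its promoter. *Scrn1*, which encodes secernin, had ranks of 68.7, 69.8 and 69.4, but a WT or B10 peak lay 0.457 kb from the region. The promoters of *Tmem246* (69.8, 69.0 and 66.3) and *Zfp941* (66.1, 68.9 and 68.1) were also among the 10 strongest at starts of protein-coding genes.

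**Figure D1:**
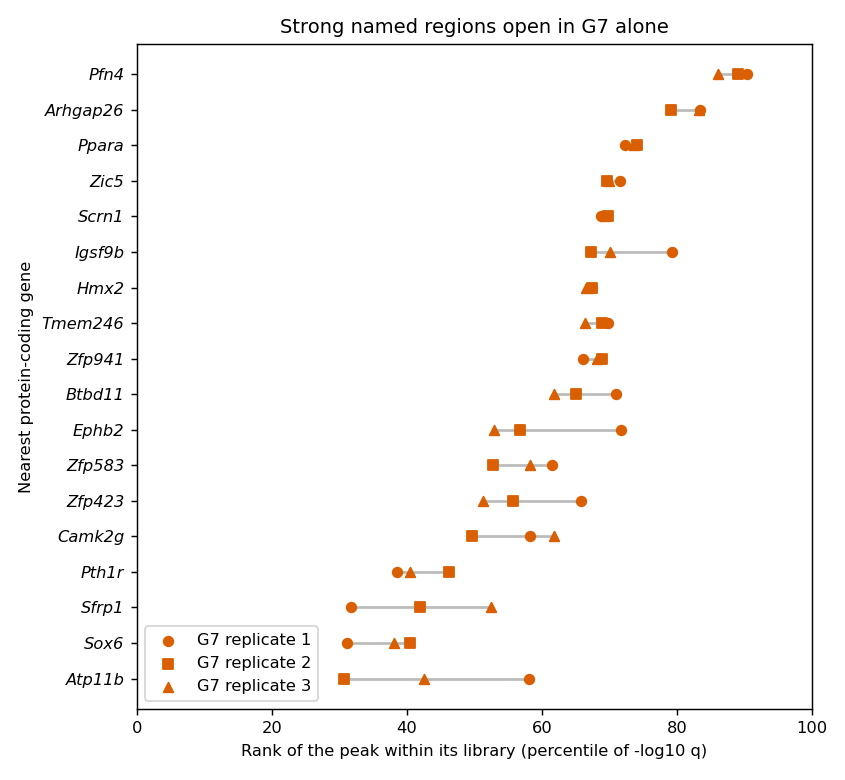
Rank of the peak within each of the 3 G7 libraries (percentile of −log10 q, 0 to 100). The 18 named genes are each the nearest to a strong G7-only region found in all 3, with 1 region a gene. Symbols are the replicates and the grey line spans them. Ranks at *Pfn4* lie between 86.2 and 90.3, and those at the lowest gene shown, *Atp11b*, between 30.7 and 58.1.

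Regions of this strength were the exception. The median rank of G7-only peaks was 17.3, 16.6 and 14.2 in G7 replicates 1, 2 and 3, and the median fold enrichment was 4.55, 4.22 and 4.35. The median of a region's G7 ranks was over 50 in 44 of 1495 regions (2.94%), against 5.94% of B10-only regions, 6.40% of WT-only regions and 76.4% of regions that all 9 libraries shared. The regions were also narrow, with a median width of 371 bp, where B10-only regions had 377 bp, WT-only regions 389 bp and regions shared by all 9 libraries 885 bp. The regions were chosen by their peaks in these libraries, so these values are a description.

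A peak was present in all 3 G7 libraries in 405 regions (27.1%). In 494 (33.0%) it was in replicates 2 and 3, in 313 (20.9%) in replicates 1 and 2, and in 283 (18.9%) in replicates 1 and 3. If both remaining libraries had to hold a peak, 903 regions were left without G7 replicate 1, 693 without replicate 2 and 718 without replicate 3. Where 2 libraries shared a region, their ranks correlated across regions (Spearman's rho from 0.625 to 0.650), as a description over regions that are not independent replicates. In the 405 regions the summits of the 3 peaks lay a median of 64 bp apart, against 37 bp in regions that all 9 libraries shared.

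Many regions lay close to either side of the rule. A further 1922 regions had enough G7 peaks but failed by exactly 1 WT or B10 peak, whose median rank was 14.3. The strongest of these were near *Elfn2* (ranks 85.2, 85.1 and 85.9 in G7), with a B10 replicate 2 peak of rank 6.96, and at *Ntn1*, the axon guidance factor netrin-1 (64.7, 70.5 and 70.8), with a B10 replicate 1 peak of rank 1.53. *Klk10*, a kallikrein protease, failed by a WT replicate 2 peak of rank 25.6. On the other side, 7101 regions had a peak in 1 G7 library alone, with a median rank of 5.99. The regions just inside, with 2 G7 peaks, had a median rank of 12.9, and those with 3 had 22.7. Of the 5335 regions that were open in G7 and had no WT peak, 1495 had none in B10, while 1767 (33.1%) had a peak in all 3 B10 libraries. The nearest WT or B10 peak was a median of 3.97 kb from a G7-only region, and it was within 1 kb of 265 of them (17.7%).

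To ask whether such regions recur in a library that had no part in choosing them, the rule was applied to replicates of 2 numbers in every line and read in the third. Of regions chosen as G7-only without replicate 1, 52.8% had a peak in G7 replicate 1 (n = 1292), and the shares were 61.1% for replicate 2 (n = 1048) and 57.9% for replicate 3 (n = 1005). Their mean was 57.3% ± 4.18 (SD, n = 3), against 19.5% ± 3.16 in the left-out B10 library and 17.3% ± 0.769 in the left-out WT library. In each of the 3 rounds the G7 library was the highest, and its shares did not overlap those of WT or B10, which overlapped each other. For regions chosen as B10-only the left-out B10 library gave 71.0% ± 10.9, and for WT-only regions the WT library gave 68.2% ± 13.5.

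**Figure D2:**
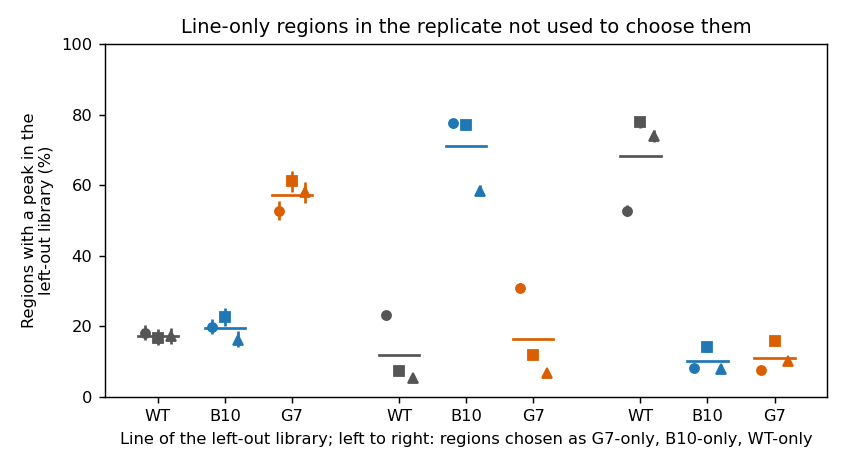
Share of regions (%) with a peak in the library left out of the choice; bars on points are 95% Wilson intervals (counting error only), circles, squares and triangles are left-out replicates 1, 2 and 3, and horizontal lines are means of 3. For regions chosen as G7-only the G7 shares are 52.8% to 61.1%, and all WT and B10 shares are below 23%.

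The regions were then placed on the gene annotation. At a promoter, within 3 kb of a transcription start, lay 442 G7-only regions, which is 29.6% (95% Wilson interval 27.3 to 31.9%, counting error only). This is near the 30.9% of consensus regions and above the 15.6% of B10-only and 23.1% of WT-only regions. Introns held 37.8% of G7-only, 36.2% of B10-only, 32.3% of WT-only and 32.0% of consensus regions. Intergenic DNA held 27.7% of G7-only, 44.7% of B10-only, 40.7% of WT-only and 32.2% of consensus regions. The median distance to the nearest protein-coding start was 22.7 kb for G7-only, 59.2 kb for B10-only and 26.4 kb for WT-only regions.

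Promoters were most frequent among the strong regions. Of the 44 with a median rank over 50, 72.7% were at a promoter, against 31.3% of those ranked 25 to 50 and 27.4% of those up to 25. Regions shared by all 9 libraries, which were mostly strong, also exceeded consensus regions in promoters (40.5% against 30.9%) and CpG-dense windows (19.7% against 10.6%). Strong B10-only and WT-only regions were not read, so this order is not shown to be particular to G7. Among the 50 strongest, 36 were at a promoter and 28 within 1 kb of a protein-coding start. Within 1 kb of a coding start lay 144 G7-only regions in all (9.63%), 71 of them with a peak in all 3 G7 libraries. This share was below the 14.2% of consensus regions and above the 2.79% of B10-only and 6.19% of WT-only regions. Of these 71, 47 (66.2%) were CpG-dense, close to the 63.4% of consensus regions within 1 kb of a coding start, and of all 144, 58 (40.3%) were. CpG-dense means that the window around the summit had a GC content of at least 50% and at least 0.6 of the CG dinucleotides expected from its bases. Of the 44 regions with a rank over 50, 21 (47.7%) were CpG-dense. At promoters within 3 kb the share was 18.6% of G7-only against 31.3% of consensus regions. Over all G7-only regions 98 were CpG-dense, which is 6.56% (5.41 to 7.92%), against 0.687% of B10-only, 3.35% of WT-only and 10.6% of consensus regions.

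Repeats were more frequent in G7-only regions than in any of the other sets compared. In 193 regions, 12.9% (11.3 to 14.7%), over 50% of the summit window was repeat sequence, soft-masked in the genome. The share was 6.44% (5.78 to 7.16%) in B10-only, 6.33% (5.63 to 7.11%) in WT-only, 4.94% in consensus regions and 2.64% in regions shared by all 9 libraries. It ranged from 10.6% in regions with a peak in 3 G7 libraries to 14.8% in those of replicates 2 and 3. With over 80% of the window masked as the measure, it was 4.62% (3.66 to 5.80%) against 2.23% in B10-only and 1.52% in WT-only regions. The repeat family was not analysed here.

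**Figure D3:**
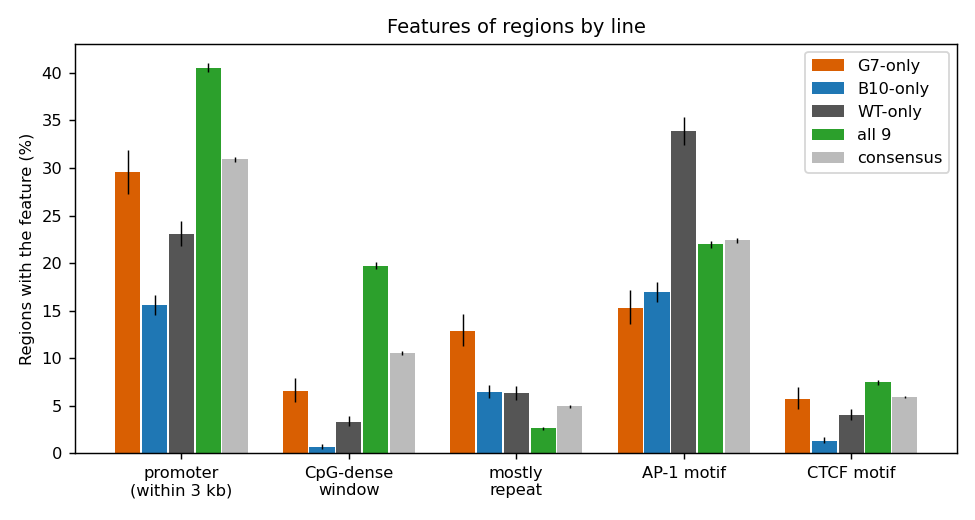
Share of regions (%) at a promoter, with a CpG-dense window, with a mostly repeat window, and with an AP-1 or CTCF motif within 100 bp of the summit, for 5 sets of regions; bars are shares and lines are 95% Wilson intervals (counting error only). G7-only regions have the highest mostly-repeat share (12.9%), and an AP-1 share of 15.3% against 33.9% in WT-only regions.

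Motifs were searched letter by letter on both strands in a window of 100 bp either side of each summit, and a match describes the letters and not binding. The AP-1 motif TGANTCA was in 15.3% (13.6 to 17.2%) of G7-only regions, 16.9% of B10-only, 33.9% of WT-only and 22.4% of consensus regions. In the 44 strongest regions it was found once. The share moved with the replicates that held the peak. It was 23.7% (20.2 to 27.6%) in regions with a peak in replicates 2 and 3, 8.31% in those of replicates 1 and 2, 8.83% in those of replicates 1 and 3 and 15.1% in those of all 3. B10-only and WT-only regions showed the same order, with 26.4% and 47.6% in those lacking a peak in replicate 1 against 14.97% and 25.55% in those with one.

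CTCF motifs were in 5.69% (4.62 to 6.98%) of G7-only regions, near the 5.94% of consensus regions and above the 1.33% of B10-only regions. The SOX motif CCTTTGT was in 5.02% (4.02 to 6.24%), near the 5.37% of consensus regions, against 8.37% of B10-only regions. RUNX motifs (TGTGGTT) were in 10.6% (9.17 to 12.3%) of G7-only, 10.8% of B10-only, 6.84% of WT-only and 8.84% of consensus regions. The C/EBP motif TTGCNNAA was in 7.16% (5.96 to 8.58%) of G7-only, 11.5% of B10-only, 7.75% of WT-only and 9.02% of consensus regions. The TEAD motif ACATTCC was in 5.55% of G7-only regions, near the 5.66% of consensus regions, and in 7.35% of B10-only regions. The A tract AAAAAAAA was in 6.22% of G7-only, 7.62% of B10-only, 4.33% of WT-only and 4.93% of consensus regions. The ETS motif CCGGAAGT, common in promoters of widely used genes, was in 0.468% of G7-only and 1.19% of consensus regions.

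The 1495 regions were nearest to 1291 protein-coding genes, and 1144 of these genes had exactly 1. *Csmd3*, a very long gene for a transmembrane protein of neurons, had the most. Its 9 regions, of 75 consensus regions nearest to it, all lay in introns within a window of 1 Mb (chr15:48000001-49000000). They were weak, with ranks from 1.24 to 33.6, and 2 of the 9 had a peak in all 3 G7 libraries.

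*Btbd11*, which encodes a BTB-domain protein, was nearest to 6 G7-only regions of only 12 consensus regions, and 4 of the 6 were in all 3 G7 libraries. The region at its first start (chr10:85386572-85387303) had ranks of 70.9, 65.0 and 61.7. An intronic region 94.3 kb into the gene had ranks of 45.2, 39.4 and 43.9, and an exonic one (chr10:85624723-85625198) had 47.8, 42.4 and 19.4. A second start of *Btbd11* held a weaker region, with 8.67 and 8.73 in replicates 2 and 3. The promoter, the gene body and an upstream region 19.5 kb away (16.6, 37.8 and 21.8) were thus all open in G7, and replicate 3 was the lowest at the promoter and the exon.

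*Sox9*, the master factor of cartilage, was nearest to 5 of its 118 consensus regions, 151 to 332 kb from its start. All 5 had peaks in replicates 1 and 3 and none in replicate 2, with ranks from 0.372 to 22.4. *Tcf4*, a basic helix-loop-helix factor, was nearest to 5 regions of 55, and *Atp11b*, a phospholipid flippase, to 5 of 26. Those of *Atp11b* lay 9.71 to 486 kb from its start. The strongest of them was intergenic (chr3:35574380-35574739), 179 kb from that start, with ranks of 58.1, 30.7 and 42.5. *Gata6*, a factor of heart and endoderm that was singled out after its values were seen, had 4 G7-only regions among only 6 consensus regions, with ranks from 11.4 to 36.1.

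Genes of the lineages open to MPCs were then read from gene lists, each consensus region counted for its nearest protein-coding start. The background is 1.57% of consensus regions. Adipocyte genes had 5 G7-only regions of 292 (1.71%, 0.734 to 3.95%). The strongest was next to *Zfp423* (chr8:87960201-87960802), a zinc-finger factor of preadipocyte commitment, 606 bp from its start. Its ranks were 65.7, 55.7 and 51.3, highest in replicate 1, and the nearest WT or B10 peak was 0.574 kb away. *Ebf2*, a factor of brown and beige fat, had an intronic region with ranks of 39.4, 19.2 and 11.6. The other 3 were nearest to *Cd36*, a fatty acid carrier, *Lep*, the hormone leptin, and *Acsl1*, which activates fatty acids.

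Cartilage genes had 14 regions of 386 (3.63%, 2.173 to 5.995%), nearest to 9 of 24 genes. *Sox6*, a partner of SOX9, had a region at an annotated start (chr7:116033055-116034719) with ranks of 31.2, 40.5 and 38.1. *Matn4*, a cartilage matrix protein, had one at its promoter (chr2:164404489-164405115), shared with *Rbpjl*, with 39.6, 39.1 and 27.4. The SOX factor list had 14 of 335 (4.18%, 2.51 to 6.89%) and shares *Sox5*, *Sox6* and *Sox9* with the cartilage list. *Sox2*, a factor of stem cells and neural progenitors, had a region 7.44 kb from its start with 26.1, 16.6 and 32.5. Of the same 386 and 335 consensus regions, 23 and 20 were B10-only and 5 and 4 WT-only. The backgrounds of these sets differ from that of G7-only regions, at 5.05% of all consensus regions for B10-only and 4.37% for WT-only.

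Bone genes had 4 of 218 (1.84%). The promoter of *Pth1r*, the parathyroid hormone receptor, which it shares with *Myl3* (chr9:110742046-110743309), had ranks of 38.5, 46.2 and 40.4. A region 29.3 kb from *Tnfrsf11b*, osteoprotegerin, had 13.3, 4.97 and 9.79. Skeletal muscle genes had 4 of 157 (2.55%). A region 22.2 kb from *Myod1*, the myogenic determination factor, had 37.0, 32.6 and 26.3 with another line's peak 0.042 kb away. Smooth muscle genes had 0 of 87, for which the interval reached 4.23%.

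Among signalling genes, the Wnt list had 12 of 538 (2.23%, 1.28 to 3.86%). The 2 strongest were at promoters of secreted Wnt antagonists. *Sfrp1* (chr8:23411125-23411709) had ranks of 31.7, 42.0 and 52.4, and *Sfrp4* (chr13:19624202-19624695) had 22.6, 37.0 and 42.8. Both were lowest in replicate 1 and highest in replicate 3. The TGF-beta and BMP list had 9 of 627 (1.44%). An intronic region of *Smad6*, an inhibitory SMAD, had 33.1, 35.6 and 23.0. The promoter of *Nog*, the BMP antagonist noggin, had 26.7, 20.8 and 42.8, with a peak of another line 0.260 kb away.

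Axon guidance genes had 10 of 591 (1.69%). An intronic region of *Ephb2*, a receptor for ephrins (chr4:136783499-136784279), was the strongest of any list, with ranks of 71.7, 56.8 and 52.8. *Efna5*, an ephrin ligand, had a promoter region with 25.2, 25.8 and 20.7. Long neural adhesion and synapse genes had 17 of 675 (2.52%, 1.578 to 3.996%), 9 of them the *Csmd3* regions, and without *Csmd3* they had 8 of 600 (1.33%). Of the same 675 consensus regions 143 were B10-only, where the B10-only background is 5.05%. *Nrg1*, a growth factor for ERBB receptors, had an intronic region with 30.3, 32.6 and 28.5.

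AP-1 subunit genes had 2 of 107 (1.87%), at *Batf3* (20.2, 31.89 and 6.995) and *Batf2*. Extracellular matrix genes had 4 of 482 (0.830%, 0.323 to 2.11%). The region nearest to *Col14a1*, a fibril-associated collagen, lay 61.8 kb from its start, in an intron of *Deptor*. Its ranks were 1.12, 7.25 and 1.34, and a WT or B10 peak lay 0.213 kb away. That nearest to *Fbn2*, a fibrillin, was 136 kb from its start and had a peak in 2 libraries. Mesenchymal marker genes had 0 of 239, for which the interval reached 1.58%. Epithelial markers had 1 of 72, near *Grhl2*, neural markers 2 of 118, near *Neurod1* (40.9, 21.7 and 43.9) and *Mbp*, and blood (0 of 32) and endothelial markers (0 of 104) none. The intervals cover counting error only, regions near 1 gene are not independent, and the lists were chosen with earlier results of these data known.

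G7-only regions were unevenly spread over the chromosomes. They made up 2.85% (2.38 to 3.43%) of consensus regions on chromosome 12 and 2.42% (2.02 to 2.90%) on chromosome 8, and 0.622% (0.467 to 0.829%) on chromosome 2 and 0.970% (0.765 to 1.23%) on chromosome 1. To set this beside a measure that had no part in the choice, the ranks of the 46449 regions with a peak in all 9 libraries were used. Relative to all shared regions, those on chromosome 12 ranked 3.81 percentile points higher in G7 than in the mean of the other 6 libraries, those on chromosome 8 ranked 3.12 higher, and those on chromosomes 2 and 1 ranked lower, with differences of -3.96 and -2.70. The chromosome 8 shift was not particular to G7, since G7 ranked 4.70 points above WT there and B10 3.16 above WT. On chromosome 2 the differences from WT were -4.59 in G7 and -1.28 in B10. Across the 19 chromosomes the share of G7-only regions and this difference had a Pearson's r of 0.902 and a Spearman's rho of 0.821. Both come from the same libraries, so this is a description.

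The same order was seen at smaller scale. In 454 segments of 5 Mb with at least 20 shared regions, the share of G7-only regions was 0.615% (0.373 to 1.01%) in the 18 segments where shared regions ranked over 5 points lower in G7. It was 0.810%, 1.22%, 1.77% and 2.42% in the bins between, and 4.81% (3.84 to 6.02%) in the 10 segments where shared regions ranked over 5 points higher. Without the segment that holds the chromosome 7 stretch described next, the last bin held 3.24% (2.36 to 4.43%) in 9 segments, and without the adjoining last segment of chromosome 7 as well it held 2.997% (2.14 to 4.18%) in 8. Peak lists do not give DNA copy number, so more DNA and more accessible DNA cannot be told apart in the ranks of a chromosome or a stretch, here and in the values of the chromosome 7 stretch.

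**Figure D4:**
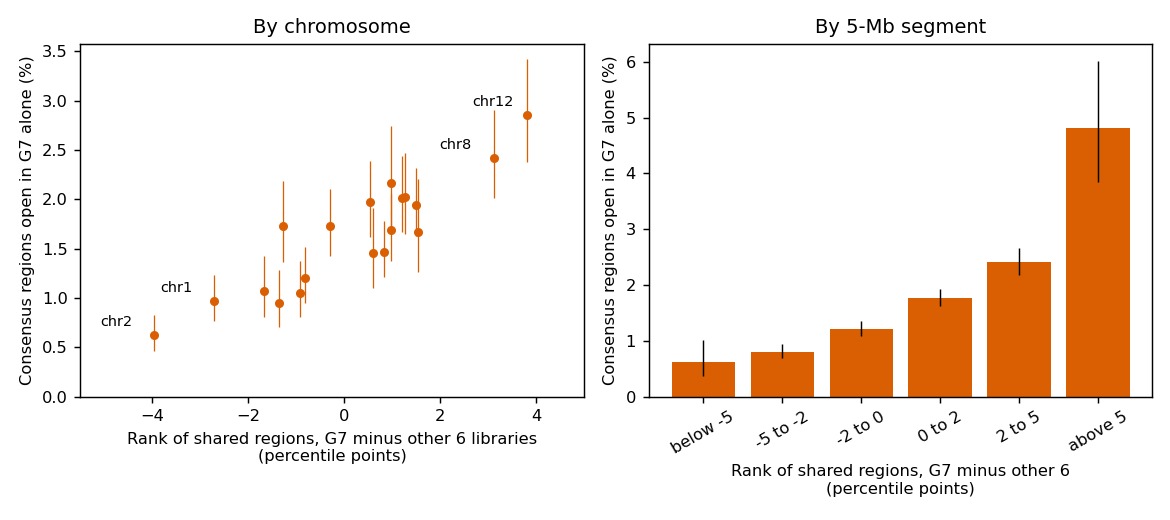
Share of consensus regions open in G7 alone (%) against the rank of regions shared by all 9 libraries in G7 minus the other 6 (percentile points), for 19 chromosomes at left and for 454 segments of 5 Mb in 6 bins at right; lines are 95% Wilson intervals (counting error only). Chromosome 2 is lowest at 0.622% and chromosome 12 highest at 2.85%, and the bins rise from 0.615% to 4.81%.

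Adjacent windows of 1 Mb near the end of chromosome 7 with at least 6 G7-only regions each were joined after their values were seen. They held 32 G7-only regions of 319 consensus regions (10.0%), against 74 of 4934 (1.5%) on the rest of the chromosome, and only 2 B10-only and 6 WT-only regions. The regions ran from chr7:141277480 to chr7:144901809. They were mostly weak, with ranks from 0.364 to 56.8 and a median of 13.8, and 12 of the 32 were in all 3 G7 libraries. Of the 32, 8 were at promoters, 11 in introns and 9 intergenic.

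The strongest was at a start near *Gm2431* (chr7:142249815-142250323), with ranks of 56.8, 48.1 and 42.5, in a cluster of keratin-associated protein genes where *Krtap5-5* (32.8, 20.5 and 20.2) and *Krtap5-4* (26.1, 18.2 and 4.23) also had one. Further on lies a well-known group of imprinted genes, expressed from 1 parental copy. There *Cd81*, a tetraspanin, was nearest to 2 regions, 20.6 and 14.7 kb from its start. The first of these was the stronger, with 32.64, 33.76 and 27.96. *Kcnq1*, a potassium channel, was nearest to 2, at 71.5 and 127 kb. The start of *Cdkn1c*, an inhibitor of the cell cycle, was also nearest to 2, but 109.9 and 51.7 kb away. *Ins2* (insulin) was nearest to 1 at 15.3 kb and *Phlda2* to 1 at 6.82 kb. *Fgf3*, a fibroblast growth factor gene, was nearest to 3 and *Fgf15* to 1.

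The 159 regions of this stretch that had a peak in all 9 libraries were ranked in the same way. Their rank relative to all shared regions was 13.1, 12.6 and 13.6 points in the G7 libraries, -0.815, 0.0802 and -0.0384 in WT and -1.52, -1.18 and -1.51 in B10. The means were 13.1 ± 0.485 in G7, -0.258 ± 0.486 in WT and -1.40 ± 0.194 in B10 (SD, n = 3 each), and all 3 G7 libraries lay above all of the others. No test was made, since the stretch was picked for its values.

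Shared regions near G7-only regions were compared over the whole genome. The 4918 shared regions at 1 to 50 kb from a G7-only region had relative ranks of 1.94, 2.08 and 2.15 in G7, 0.0305, 0.328 and 0.225 in WT and 0.314, 0.481 and 0.397 in B10. The G7 libraries were the 3 highest. G7 exceeded the mean of the other 6 libraries by 1.76 points (exact two-sided permutation p = 0.0238, the smallest that 3 against 6 libraries allow, adjusted p = 0.0714 over 6 tests). These neighbours were placed by G7-only regions, which were chosen on peaks in the same libraries. The permutation did not repeat that choice, so its p-values do not account for it and the difference is a description. The difference from WT was 1.86 and that from B10 1.66, each with an exact permutation p of 0.1, the smallest that 3 against 3 allow. With each chromosome centred on its own mean the difference from the other 6 libraries was 1.28, and without the chromosome 7 stretch it was 1.61. By distance, G7 and the other 6 libraries had means of -0.178 and -1.78 at 1 to 10 kb, 2.58 and 0.780 at 10 to 50 kb, 1.26 and 0.120 at 50 to 200 kb, and -0.268 and -0.297 at 200 to 1000 kb.

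Shared regions at the promoters of the genes nearest to G7-only regions (1017 regions) had relative ranks of 17.6, 16.5 and 17.2 in G7, 16.2, 15.5 and 15.8 in WT and 15.5, 13.7 and 15.1 in B10. Again all 3 G7 libraries were the highest, with G7 replicate 2 only just above WT replicate 1. The difference from the other 6 was 1.78 points (exact two-sided permutation p = 0.0238, adjusted p = 0.0714). It was 1.24 from WT and 2.32 from B10 (exact permutation p = 0.1 each). When every library was trimmed to its strongest 74643 peaks it was 0.878 (exact permutation p = 0.119), and on the log2 fold enrichment scale it was 0.01 (exact permutation p = 0.595). None of the 6 tests passed an adjusted p of 0.05. Here too the regions compared were placed by G7-only regions chosen in the same libraries, which the permutation did not repeat.

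**Figure D5:**
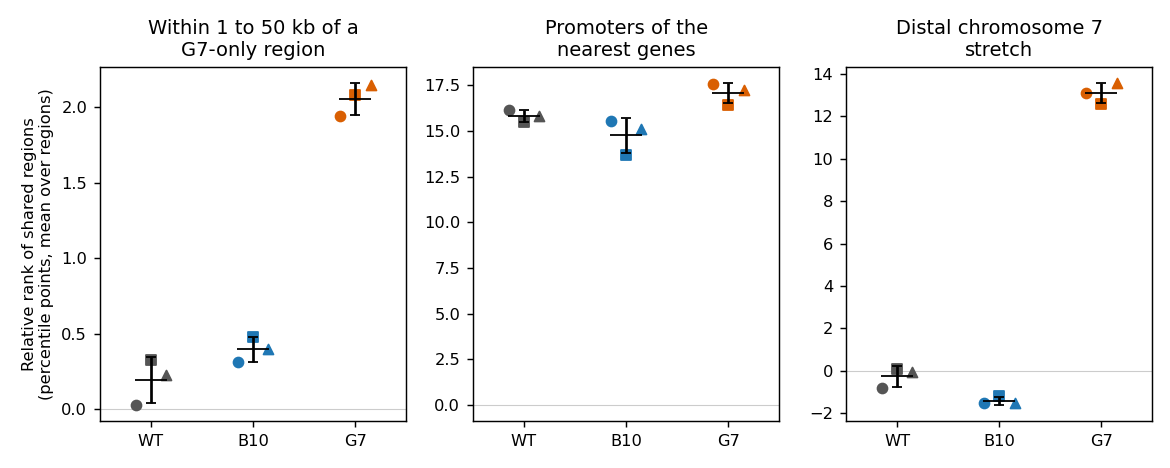
Relative rank of regions shared by all 9 libraries (percentile points, mean over regions, 0 is the mean of all shared regions) in each library, for regions 1 to 50 kb from a G7-only region, for promoters of the nearest genes and for the chromosome 7 stretch; symbols are replicates 1 (circle), 2 (square) and 3 (triangle), and black bars are the mean ± SD of 3 libraries. G7 lies at 1.94 to 2.15 in the first, 16.5 to 17.6 in the second and 12.6 to 13.6 in the third panel, above every other library in each.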

How the data were processed

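ATAC-seq peak lists of 9 libraries (3 each of WT, B10 and G7) were used, grouped by line and replicate number as the library titles give them. The authors checked reads with Rfastp, aligned them to mm10 with Rsubread and called peaks in each library separately with MACS2 in paired-end mode, at a version not given in the sources used here. Whether an input was used is unclear, since the methods name none while the peak names mention one. Each deposited list holds the ends and summit of every peak, its fold enrichment (a ratio of signal to background), its significance as −log10 p-value and −log10 q-value, and a score for display. The score repeats the q-value and was not used. The lists show a lowest −log10 q of 1.30 to 1.31, and hold no counts, so depth is unknown and intervals cover counting error of regions only.

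Peaks were merged, classed with GENCODE M21 (promoter, then 5′ UTR, 3′ UTR, exon, intron, intergenic), and assigned to the nearest protein-coding start. Bases, repeats and motifs were read from the GRCm38 genome, which is the assembly mm10. Lines were compared over libraries by exact permutation, two-sided (scipy 1.17.1) and Benjamini-Hochberg adjustment over 6 tests. The scripts were tested on simulated data. At most 0.382% of peaks had identical ends in any 2 libraries, so none was deposited more than once.

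The members, gene lists and motifs were chosen with earlier results of these data known. Regions were named by rule: the 8 strongest, the 10 strongest within 1 kb of a coding start, the 5 genes nearest to most, up to 2 per list, the 5 fullest windows of 1 Mb, the strongest with an AP-1, SOX or CTCF motif, and the 3 strongest that failed by 1 peak. Some regions that the rule names are not reported here. The lists were adipocyte, cartilage, bone, skeletal and smooth muscle, AP-1, SOX, Wnt, TGF-beta and BMP, long neural, axon guidance, matrix and 5 marker lists. Libraries with the same replicate number deviated together from their line means (correlations of 0.315 to 0.665 in 9 pairs), which is read from the data and not from the labels. Alternatives changed the peak threshold, the number of peaks, the distance to other lines, the windows and the libraries.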

Additional observations from a re-analysis of the deposited data

Results flagged for a closer look

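The following values had every G7 library on one side of the WT mean and every B10 library on the other, and none of these differences between the clones was tested as such except the first, where 3 against 3 libraries cannot pass the threshold. At promoters of the genes nearest to G7-only regions, shared regions ranked 1.24 points above WT in G7, with a difference of -1.08 from WT in B10, so that the clones differed by 2.32 points (exact permutation p = 0.1). In the chromosome 7 stretch the differences from WT were 13.4 and -1.15, and the clones differed by 14.5 points. On chromosome 12 as a whole they were 2.65 and -2.31, and the clones differed by 4.96 points. Among whole chromosomes only 2, 8 and 12 were read by this rule. Others met it as well, such as chromosome 4. Its relative ranks were 0.183, 0.273 and 0.280 in G7, -0.508, -0.849 and -0.663 in WT and -1.79, -1.84 and -1.87 in B10.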

How the results depend on the processing

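The count of 1495 regions became 286 when G7 peaks needed a −log10 q of at least 10 and 405 when all 3 G7 libraries had to hold a peak. It ran from 693 to 1910 when 1 library was left out, lowest without G7 replicate 2. The promoter share of 29.6% became 40.2% and 38.0% under the same first 2 rules and 17.5% within 1 kb, with a range of 28.2 to 33.9% without 1 library. The AP-1 share of 15.3% became 20.5% when the whole region was searched and ran from 11.7 to 20.04% without 1 library, highest without G7 replicate 1, and the SOX share became 8.56% in whole regions. The mostly repeat share became 10.6% in regions of 3 libraries and 4.62% at over 80% masked, under alternatives added after the data were seen, as were the removal of chromosome 7 segments and of *Csmd3*. The cause of these moves was not tested beyond what a stricter or wider rule itself adds or removes. The differences of shared regions kept their sign in every alternative run, from 1.63 to 2.17 near G7-only regions and from 1.37 to 2.58 at promoters without 1 library. With the replicate block they were 1.76 and 1.78 (exact permutation p = 0.0741 each, the smallest it allows), which changed no call. Unknown depth limits every statement of absence.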

Other observations

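On the X chromosome, which was outside the rule and carries *Atrx* itself, the same criterion gave 64 G7-only regions of 2165 consensus regions (2.96%), against 131 B10-only (6.05%) and 92 WT-only (4.25%) regions. Among autosomal genes nearest to at least 4 G7-only regions, *Rora*, a nuclear receptor, had 4 of 13 consensus regions, all intronic, with ranks of 34.2, 49.1 and 30.5 at the only one found in all 3 libraries. *Inpp4b*, a phosphoinositide phosphatase, had 4 of 31, 3 of them in all 3 libraries, and *Dock4*, an activator of Rac, had 4 of 20. These genes were singled out after their values were seen.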
